A study of Mus musculus with 6 samples.

Results

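The PPAR, PGC-1 and ERR regulators and the partner receptor RXRγ were examined in mouse muscle as 10 genes: *Ppara*, *Ppard*, *Pparg*, *Ppargc1a*, *Ppargc1b*, *Pprc1*, *Esrra*, *Esrrb*, *Esrrg* and *Rxrg*. They were taken by symbol from a table of read counts for 53084 genes, in which all 10 were present, and all 10 had enough counts to be among the 15075 genes tested. RNA came from the muscle of 3 wild-type *Tarsl2*+/+ mice (WT) and 3 homozygous *Tarsl2*-/- mice (KO), all male mice of strain C57BL/6 (C57BL/6J in the study's methods), 6 weeks of age and on standard chow, with 1 library per mouse. In the KO mice, a genomic fragment with exon 3 of *Tarsl2*, the gene of a threonyl-tRNA synthetase paralog, had been removed with CRISPR/Cas9 and a pair of guide RNAs, and whether the 3 mice descend from 1 founder is not given in the sources used here. The comparison asks how these transcripts differ between the genotypes and which paralog of each family is the most abundant in muscle. *Ppara*, *Ppargc1a* and *Ppargc1b* were also measured by RT‒qPCR in the study, so they are not an independent choice of genes.

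PPARα, PPARδ and PPARγ are nuclear receptors for fatty acids and their derivatives. They bind DNA as pairs with a retinoid X receptor (RXR) and switch on genes for lipid uptake, storage and oxidation. The estrogen-related receptors ERRα, ERRβ and ERRγ resemble estrogen receptors but need no known natural hormone, and they drive genes of the citrate cycle, the respiratory chain and fatty acid oxidation. PGC-1α, PGC-1β and the related coactivator PRC, products of *Ppargc1a*, *Ppargc1b* and *Pprc1*, bind such receptors and raise their activity. In skeletal muscle PGC-1α rises with endurance exercise and fasting and is known for mitochondrial biogenesis and for the oxidative fibre programme.

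The libraries held between 16176591 and 20123767 counts, at which 3 counts correspond to 0.149 to 0.185 CPM (the count divided by the library total, scaled up to a common depth). Values below are CPM after TMM scaling, a correction of library size by trimmed mean log ratios. The targeted gene *Tarsl2* was at 27.7 ± 4.0 CPM (SD, n = 3) in WT and 1.97 ± 0.231 (SD, n = 3) in KO muscle. The tissue label held for muscle, since the fast fibre myosin *Myh4* had at least 100825 counts in every library. Of 10 retinal markers, checked because the extraction text of the labels speaks of the retina, 4 had no counts and none could be tested. Of 6 heart markers, *Nppa* and *Nppb* had no counts, whereas *Tnnt2* had 75 to 160 counts and *Tnni3* 5 to 16. Only *Tnnt2* could be tested, and the 6 summed to 5.78 to 8.36 CPM in WT and 5.49 to 8.36 CPM in KO mice. In bulk tissue, fewer cells of a type and less RNA per cell cannot be told apart.

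Of the 10 regulators, 2 rose in KO muscle at an adjusted p under 0.05 (edgeR's quasi-likelihood test, Benjamini-Hochberg adjustment over all 15075 tested genes): *Ppara*, about 3-fold, and *Ppargc1b*, about 2-fold. None fell by edgeR, DESeq2 or limma-voom, or at an unadjusted p under 0.05. Over all tested genes, 2.27% passed this threshold in either direction and 0.896% rose. Before adjustment, 5 of the 10 had a p under 0.05 by this test. In 7 of the 10 every KO mouse lay above every WT mouse, compared with 12.6% of all tested genes, and in none did every KO mouse lie below. The median log2 fold change (KO over WT) of the 10 was 0.35, compared with 0.00253 over all tested genes. The number of regulators past the threshold depended on single mice: it was 0 without WT mouse 583, WT mouse 595 or KO mouse 589, 1 without either of the other KO mice, and 2 without WT mouse 584. With DESeq2 it was 4, *Esrra* and *Ppargc1a* being added, and with limma-voom 1, *Ppara*.

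**Figure D1:**
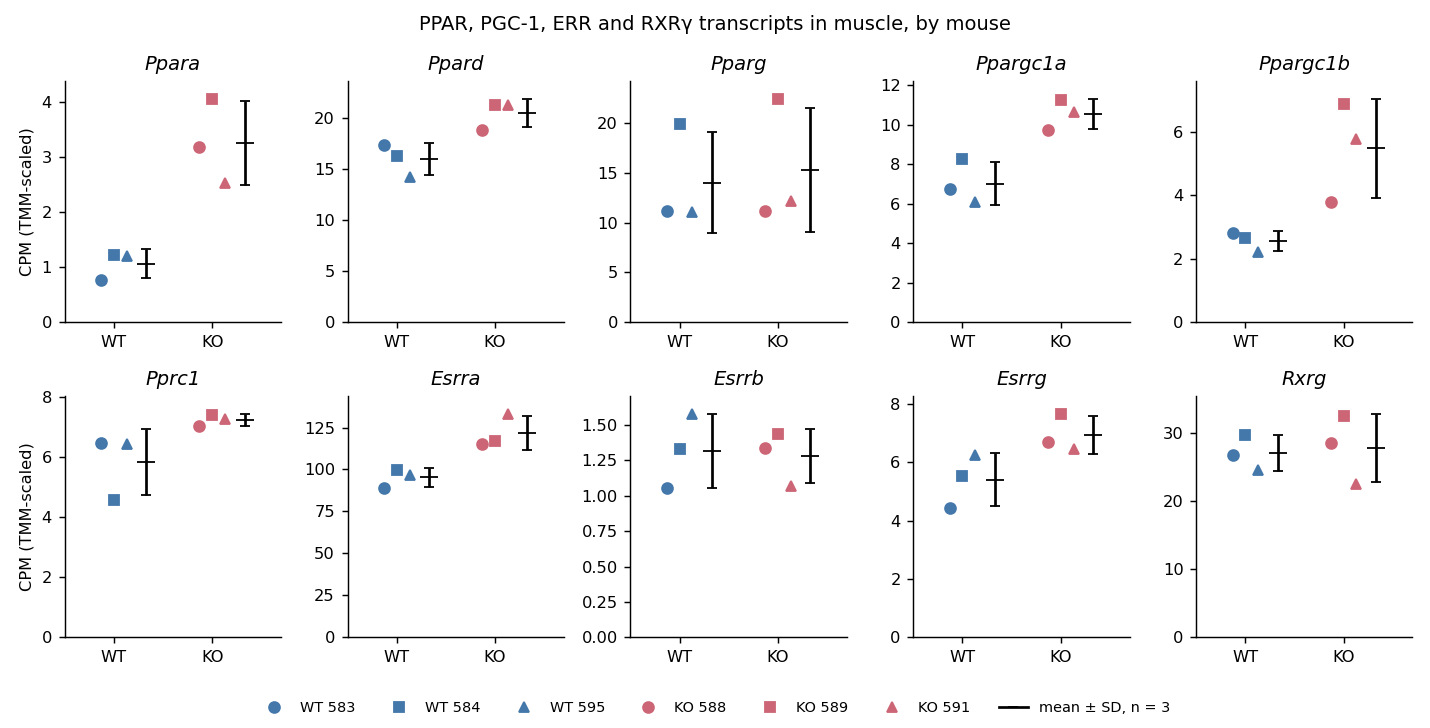
CPM after TMM scaling (vertical axis, starting at 0) of each of the 10 regulators in the 3 WT and 3 KO mice, with 1 symbol per mouse and the mean ± SD (n = 3) beside each group. In *Ppara* the KO mice sit between 2.53 and 4.05 and the WT mice between 0.76 and 1.22, whereas the groups overlap in *Pparg*, *Esrrb* and *Rxrg*.

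*Ppara* encodes PPARα, the receptor best known for fatty acid oxidation in liver, heart and brown fat. Its gene lies on chromosome 15 (plus strand, 85734983 to 85802819, build GRCm38, as for all positions given here). The 3 WT mice (583, 584 and 595) had 13, 23 and 23 counts, or 0.76, 1.22 and 1.21 CPM. The 3 KO mice (588, 589 and 591) had 57, 65 and 52 counts, or 3.18, 4.05 and 2.53 CPM. The lowest KO mouse was thus above the highest WT mouse, although all 6 levels were low. The means were 1.06 ± 0.263 and 3.25 ± 0.766 CPM (SD, n = 3 each), a 3.01-fold difference. On the log2 scale the difference was 1.59 (standard error 0.28, 95% interval 0.97 to 2.22, adjusted p = 0.018). Exact permutation of the 6 mice, which can go no lower than 0.1, gave p = 0.1 (two-sided). Each library left out in turn gave log2 fold changes of 1.40 to 1.75, but only 2 of these 6 fits were past the threshold. The adjusted p was 0.0798 without WT mouse 583, 0.056 without WT mouse 595, 0.0541 without KO mouse 588 and 0.0723 without KO mouse 589.

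*Ppard* encodes PPARδ, the receptor most often linked to fatty acid use in muscle. Its gene is on the plus strand of chromosome 17, from 28232754 to 28301469. WT mice 583, 584 and 595 were at 17.4, 16.3 and 14.3 CPM, and KO mice 588, 589 and 591 at 18.9, 21.3 and 21.3. All 3 KO mice were higher than the WT mice, but the gap between the groups was small. The log2 fold change of 0.36 (standard error 0.11, 95% interval 0.12 to 0.60) had an adjusted p of 0.102. *Pparg* encodes PPARγ, the master receptor of adipocytes, and is on the plus strand of chromosome 6, from 115360951 to 115490399. It was at 11.1, 19.9 and 11.02 CPM in the WT mice and at 11.2, 22.4 and 12.2 CPM in KO mice 588, 589 and 591. WT mouse 584 and KO mouse 589 were high and the other 4 mice nearly level, so that the genotypes overlapped. Its log2 fold change of 0.11 (95% interval -0.50 to 0.72, adjusted p = 0.872) fell to -0.26 without KO mouse 589, so neither direction nor size was settled. The log2 ratio of *Ppara* to *Ppard* was -3.80 ± 0.465 in WT and -2.64 ± 0.341 in KO mice, a shift of 1.16 without overlap. Exact permutation (two-sided) gave p = 0.1, or 0.4 after Benjamini-Hochberg adjustment over the 4 pairs compared. As p = 0.1 is the smallest this exact permutation allows, it cannot decide whether the difference was larger for *Ppara* than for *Ppard*.

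Among the coactivators, *Ppargc1b* rose and the other members were higher without passing the threshold. *Ppargc1b*, the gene of PGC-1β, is on the minus strand of chromosome 18, from 61298136 to 61400431. The WT mice 583, 584 and 595 had 48, 50 and 42 counts, or 2.81, 2.66 and 2.21 CPM. KO mice 588, 589 and 591 had 68, 110 and 119 counts, or 3.79, 6.86 and 5.78 CPM. KO mouse 588 was close to the WT range, and the other KO mice were well above it. The fold difference of the means, 2.56 ± 0.313 and 5.48 ± 1.56 CPM (SD, n = 3 each), was 2.14, and the log2 fold change was 1.10 (standard error 0.24, 95% interval 0.58 to 1.62, adjusted p = 0.037). It passed the threshold in only 1 of the 6 fits that left out a library, the one without KO mouse 588 (adjusted p = 0.0202). The others had adjusted p-values of 0.0502 without WT mouse 584, 0.111 without WT mouse 583, 0.131 without WT mouse 595, 0.124 without KO mouse 589 and 0.11 without KO mouse 591, with log2 fold changes that stayed at 0.91 or above. With limma-voom the adjusted p was 0.0549.

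*Ppargc1a*, the gene of PGC-1α, is on the minus strand of chromosome 5, from 51454250 to 51567726. It was at 6.72, 8.24 and 6.09 CPM in WT mice 583, 584 and 595 and at 9.70, 11.2 and 10.6 CPM in KO mice 588, 589 and 591. No KO mouse reached down to the WT range. The means of 7.02 ± 1.10 and 10.5 ± 0.771 CPM (SD, n = 3 each) differed 1.5-fold. The log2 fold change was 0.58 (standard error 0.14, 95% interval 0.27 to 0.90, adjusted p = 0.0607). This value was on the other side of the threshold with DESeq2 (adjusted p = 0.0375), without a filter on low counts (0.0059) and without WT mouse 584 (0.0267). *Pprc1*, the gene of PRC, is on chromosome 19 from 46044886 to 46072915, and 177 of its exon bases lie opposite *Ldb1*. It was at 6.49, 4.57 and 6.46 CPM in the WT and 7.02, 7.42 and 7.29 CPM in the KO mice in the same order, a log2 fold change of 0.31 (95% interval -0.05 to 0.67, adjusted p = 0.319). The KO mice were close to each other and only just above WT mice 583 and 595. The log2 ratio of *Ppargc1b* to *Ppargc1a* was 0.45 higher in KO mice, but the genotypes overlapped (exact permutation test, p = 0.2), so a larger rise of *Ppargc1b* than of *Ppargc1a* was not shown.

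*Esrra*, *Esrrb* and *Esrrg* encode ERRα, ERRβ and ERRγ. *Esrra* (chromosome 19, 6910977 to 6921813, minus strand) was at 89.2, 99.9 and 96.7 CPM in WT mice 583, 584 and 595 and at 115, 117 and 133 CPM in KO mice 588, 589 and 591. The groups were apart, with means of 95.3 ± 5.48 and 122 ± 10.02 CPM (SD, n = 3 each). The log2 fold change was 0.35 (standard error 0.09, 95% interval 0.15 to 0.55), with an adjusted p of 0.0678. DESeq2 gave 0.0248 and the fit without a filter 0.0206, and none of the 6 fits that left out a library was past the threshold. Some exon bases of *Esrra* are shared with *Trmt112* on the opposite strand (73 bases) and with *Mir6990* on the same strand (91 bases). *Esrrg* (chromosome 1, 187608791 to 188214885) was at 4.44, 5.53 and 6.25 CPM in the WT and 6.69, 7.67 and 6.46 CPM in the KO mice. Its groups came close to each other, and the log2 fold change of 0.35 was within an interval of -0.01 to 0.72 (adjusted p = 0.262). *Esrrb* (chromosome 12, 86361117 to 86521628) had between 18 and 30 counts in every library and overlapped between genotypes, with a log2 fold change of -0.06 (95% interval -0.69 to 0.58, adjusted p = 0.945).

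*Rxrg* encodes RXRγ, the RXR of restricted expression that is prominent in muscle and brain, and is on chromosome 1 from 167598384 to 167639623. It was at 26.8, 29.8 and 24.5 CPM in WT mice 583, 584 and 595 and at 28.5, 32.4 and 22.6 CPM in KO mice 588, 589 and 591. The lowest and the highest of the 6 values were both from KO mice, and the log2 fold change was 0.04 (95% interval -0.25 to 0.33, adjusted p = 0.908). Of the other RXR genes, the widely expressed *Rxra* was level between genotypes within an interval of -0.21 to 0.18 (log2 fold change -0.01, adjusted p = 0.957). *Rxrb* was at 50.9, 48.0 and 49.6 CPM in the WT and 61.2, 63.0 and 60.4 CPM in the KO mice, a log2 fold change of 0.31 (standard error 0.08) with an adjusted p of 0.0625. Its 3 KO mice were all higher, and with DESeq2 its adjusted p was 0.0481.

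**Figure D2:**
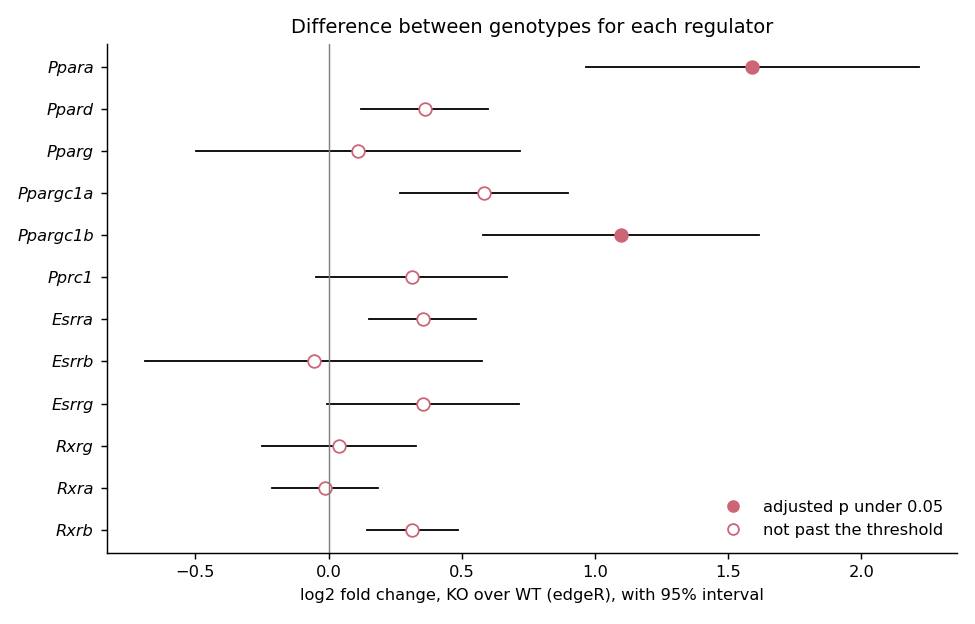
Log2 fold change (KO over WT, horizontal axis) of the 10 regulators and of *Rxra* and *Rxrb* with the 95% interval from edgeR; filled symbols have an adjusted p under 0.05 and open symbols do not. Only *Ppara* (1.59) and *Ppargc1b* (1.10) are filled, and the interval of *Pparg* reaches from -0.50 to 0.72.

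To compare paralogs with each other, CPM was divided by the gene length given in the count table, in kb of exon. ERRα transcripts dominated their family: *Esrra* was at 37.5 ± 2.16 CPM per kb in WT and 47.9 ± 3.95 in KO muscle (SD, n = 3 each), *Esrrg* at 0.871 ± 0.146 and 1.12 ± 0.104, and *Esrrb* at 0.218 ± 0.0432 and 0.212 ± 0.0313. Over the 6 libraries *Esrra* was 43.2-fold above *Esrrg* on average, and never less than 37.3-fold (exact two-sided sign-flip test, p = 0.0312, the smallest that 6 libraries allow, or 0.0625 after Benjamini-Hochberg adjustment over the 8 pairs of neighbours within families). *Esrra* made up 97.2% of the summed ERR level in WT and 97.3% in KO mice, and this share did not differ beyond the spread between mice (exact permutation test, p = 0.8). In the PPAR family the order was *Pparg* (4.74 ± 1.72 and 5.16 ± 2.11 CPM per kb in WT and KO), *Ppard* (3.45 ± 0.339 and 4.43 ± 0.301) and *Ppara* (0.277 ± 0.0685 and 0.848 ± 0.200). *Pparg* and *Ppard* did not differ beyond their spread: *Pparg* was higher in 4 of 6 libraries, 1.21-fold on average (exact sign-flip test, p = 0.219). *Ppara* was below *Ppard* in 6 of 6 libraries, by 4.36-fold to 18.9-fold. Its share of the PPAR level was 3.33% ± 0.962 in WT and 8.18% ± 1.27 in KO mice (SD, n = 3 each), without overlap (exact permutation test, p = 0.1, or 0.3 after Benjamini-Hochberg adjustment over the 12 shares compared). Even with the rise in KO muscle, *Ppara* thus had the lowest level of the 3 receptors in every mouse.

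The PGC-1 family lay within a narrower range. *Ppargc1a* was at 1.06 ± 0.167 CPM per kb in WT and 1.60 ± 0.117 in KO muscle, *Ppargc1b* at 0.641 ± 0.0785 and 1.37 ± 0.390, and *Pprc1* at 0.777 ± 0.146 and 0.964 ± 0.0270 (SD, n = 3 each). *Ppargc1a* was above *Ppargc1b* in 5 of 6 libraries (exact sign-flip test, p = 0.0625), and *Ppargc1b* and *Pprc1* could not be ordered (higher in 4 of 6, p = 0.688 by the same exact test). The share of *Ppargc1b* in the family level was 25.7% ± 1.85 in WT and 34.4% ± 5.50 in KO mice, which did not overlap (exact permutation test, p = 0.1, adjusted over the 12 shares 0.3). The 3 RXR genes were close together, at 13.7 ± 0.754 (*Rxra*), 13.4 ± 0.399 (*Rxrb*) and 11.8 ± 1.14 CPM per kb (*Rxrg*) in WT muscle, and at 13.6 ± 1.17, 16.6 ± 0.359 and 12.1 ± 2.17 in KO muscle (SD, n = 3 each). The shares of *Rxrb*, 34.4% in WT and 39.4% in KO mice, and of *Rxra*, 35.3% and 32.1%, did not overlap between genotypes (exact permutation test, p = 0.1 each, adjusted over the 12 shares 0.3). *Rxra* was above *Rxrg* in 6 of 6 libraries by 1.15-fold on average. Summed over a family, the level in KO muscle was 1.59-fold that in WT for the PGC-1 coactivators, 1.28-fold for the ERRs, 1.23-fold for the PPARs and 1.09-fold for the RXRs. The first and the second of these sums did not overlap between genotypes (exact permutation test, p = 0.1 each, adjusted over the 4 sums 0.2), whereas the PPAR and RXR sums did (p = 0.4 and p = 0.2 by the same exact test).

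**Figure D3:**
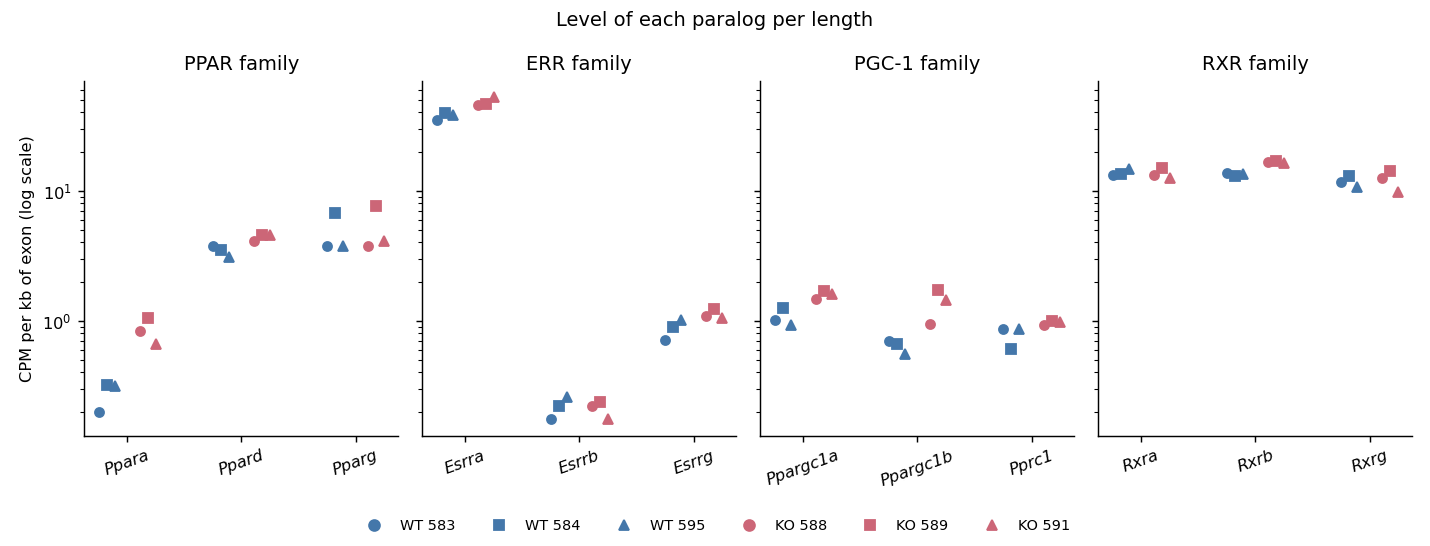
Level of each paralog in CPM per kb of exon (vertical axis, log scale) in the 3 WT and 3 KO mice, by family, with 1 symbol per mouse. *Esrra* stands 37.3-fold or more above *Esrrg* in every library, *Ppara* lies below *Ppard* and *Pparg*, and the PGC-1 and RXR paralogs lie close together.

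The length used for a gene moves part of this order. With the longest transcript as the length, and with the merged exons of GENCODE vM21, a choice made after seeing the data, *Pparg* was above *Ppard* in 6 of 6 libraries, by 1.36-fold and 1.97-fold (exact sign-flip test, p = 0.0312 each). The analysis plan named merged exon length without naming an annotation, and the main comparison used the table's length column. The table's length differs from the merged exons of vM21 for 4 of the 12 genes of these families, with 4631 against 7514 bases for *Ppard*, 2539 against 4387 for *Esrra*, 7516 against 6284 for *Pprc1* and 3698 against 3973 for *Rxrb*. *Ppargc1b* and *Pprc1* could not be ordered with any of the 3 lengths. *Rxrb* was above *Rxra* in 4 of 6 libraries with the table's length, in 6 of 6 with the longest transcript and in 3 of 6 with the merged exons. *Esrra* remained 38.1-fold and 25.0-fold above *Esrrg*. Over all 10 regulators and the table's length the order was *Esrra*, *Rxrg*, *Pparg*, *Ppard*, *Ppargc1a*, *Ppargc1b*, *Esrrg*, *Pprc1*, *Ppara* and *Esrrb*. Neighbours in this order did not differ beyond their spread over the 6 libraries from *Pparg* to *Ppard* and at each step from *Ppargc1a* down to *Ppara* (exact sign-flip test, p of 0.0625 to 0.719).

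Targets of the PPARs were followed through a list of 32 genes of fatty acid uptake and oxidation. Of these, 6 rose in KO muscle and none fell by edgeR, DESeq2 or limma-voom. The 6 are 18.8% of the list, whereas 0.896% of all tested genes rose and 2.27% passed the threshold in either direction. The median log2 fold change was 0.39, and 30 of the 32 were above 0. *Ucp3*, a mitochondrial carrier of muscle that responds to fatty acids, was at 38.4, 42.1 and 40.6 CPM in WT mice 583, 584 and 595 and at 110.6, 97.6 and 87.3 CPM in KO mice 588, 589 and 591 (log2 fold change 1.29, adjusted p = 0.00036). *Pdk4*, the kinase that holds back pyruvate dehydrogenase, was at 119.8, 120.7 and 115 CPM and at 342.6, 249 and 288 CPM (1.30, adjusted p = 0.000464). Both were far above the WT range in each KO mouse. *Plin5*, a lipid droplet protein of oxidative tissue, rose from 13.7 ± 1.60 to 27.8 ± 6.99 CPM (SD, n = 3 each; log2 fold change 1.01, adjusted p = 0.0134). *Angptl4*, a secreted inhibitor of lipoprotein lipase, rose by 1.16 (adjusted p = 0.0268). *Acadvl*, the very long chain acyl-CoA dehydrogenase, rose by 0.77 (adjusted p = 0.0285), and *Mlycd*, which degrades malonyl-CoA, rose by 0.50 on the log2 scale (adjusted p = 0.0124). *Ucp3* and *Pdk4* were among the RT‒qPCR genes of the study. The count of 6 fell to 3 without WT mouse 583 or WT mouse 595, *Ucp3* and *Pdk4* being past the threshold in all 6 fits that left out a library, and it was 11 with DESeq2. Without KO mouse 589 the median was 0.22.

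Targets of PGC-1 and the ERRs, 30 mitochondrial and metabolic genes, had a median of 0.22, with 27 above 0. *Perm1*, a muscle regulator induced by PGC-1 and ERR, was at 35.2, 42.9 and 38.8 CPM in WT mice 583, 584 and 595 and at 62.7, 65.6 and 61.6 CPM in KO mice 588, 589 and 591. The KO mice were close to each other and clear of the WT mice, and *Perm1* was past the threshold (log2 fold change 0.70, standard error 0.09, adjusted p = 0.004). *Atp5b*, the β subunit of the ATP synthase, rose by 0.53 (adjusted p = 0.028). In all, 3 of the 30 rose, whereas 0.896% of all tested genes rose and 2.27% passed the threshold in either direction. No gene of the list fell by edgeR, DESeq2 or limma-voom. Only *Perm1* was left without WT mouse 583, WT mouse 595 or KO mouse 589. There were 7 without WT mouse 584 and 8 with DESeq2.

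Coregulators and upstream factors, 33 genes that include the partners and kinases acting on PGC-1, gave no gene past the threshold by edgeR. Before adjustment 6 of them had a p under 0.05, DESeq2 called 2 and limma-voom 0. The median was 0.10, and the smallest adjusted p-values were those of *Camk2b*, a calcium-dependent kinase (log2 fold change 0.39, adjusted p = 0.0669), and *Mef2c*, a muscle transcription factor (0.39, adjusted p = 0.0734). Of 27 other nuclear receptors 25 were tested, with a median of 0.08, and 1 rose and 1 fell. The one that fell was *Nr1d1*, which encodes the clock repressor REV-ERBα, from 18.1 ± 1.53 to 11.7 ± 0.696 CPM (SD, n = 3 each; log2 fold change -0.63, adjusted p = 0.0174). Its groups did not overlap, and it was not past the threshold in the fits without WT mouse 583, KO mouse 588 or KO mouse 591.

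**Figure D4:**
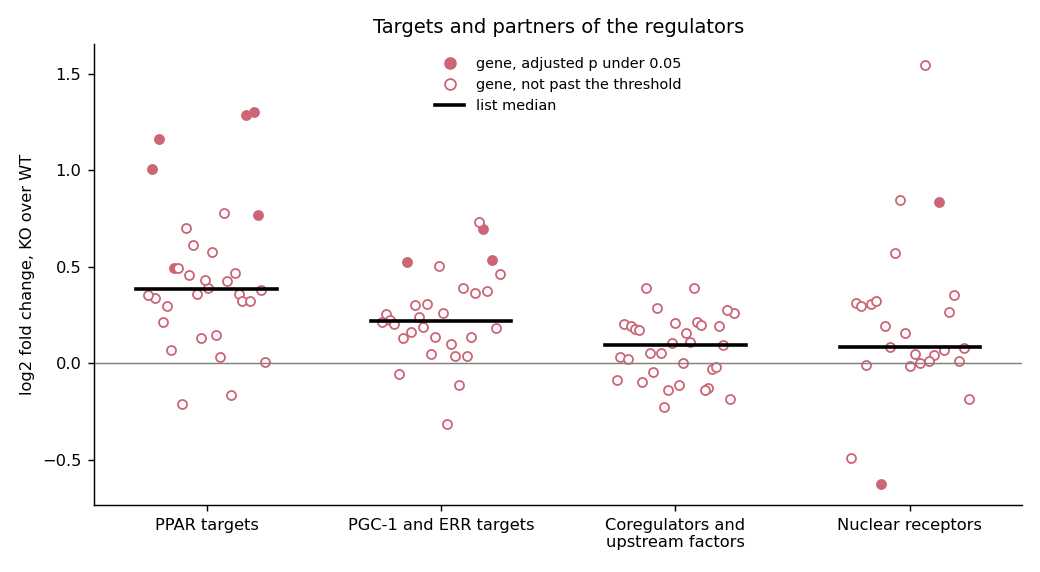
Log2 fold change (KO over WT, vertical axis) of each tested gene in the lists of PPAR targets (32), PGC-1 and ERR targets (30), coregulators and upstream factors (33) and other nuclear receptors (25), with 1 circle per gene, filled where the adjusted p was under 0.05, and a bar at the list median. The medians are 0.39, 0.22, 0.10 and 0.08, and the filled circles are 6, 3, 0 and 2.

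Promoters were read from RefSeq on GRCm38.p6 as 250 bases before to 50 bases after a start site. Motif results are given for 16 promoters of 9 of the 10 regulators. *Ppargc1b* was left out of these results, so nothing is stated here on whether its promoter holds a motif. Both strands were searched for 4 motifs. These included AAGGTCA, the extended site of the ERRs, which 4.72% of the 32817 promoters kept for the search held. AGGTCAAAG is from the repeat bound by PPAR with RXR (0.427%). The others were TGACGTCA, the cyclic AMP response element (1.79%), and TAAAAATA, an MEF2 site (2.72%). AGGTCAAAG can overlap the end of AAGGTCA. Of the 16 promoters, 1 held a motif, AAGGTCA in *Rxrg*, 89 bases before the start. Among the target genes whose promoters were searched, AAGGTCA was in 1 of 25 PPAR targets (4.0%, *Acadm*) and in 2 of 24 PGC-1 and ERR targets (8.33%). One of these is *Perm1*, which holds it on the other strand, as TGACCTT, 202 bases before the start. A target was counted if any of its promoters held the motif, whereas the 4.72% is a share of single promoters. The promoters below are those of *Ppara*, the regulator with the largest difference, which held none of the 4 motifs, of *Rxrg*, and of *Perm1*, the target past the threshold that held the ERR motif. They are written 5′ to 3′ with the motif in capitals, for *Ppara* from chr15:85735526-85735825, for *Rxrg* from chr1:167618015-167618314 and for *Perm1* from chr4:156215677-156215976, all on the plus strand.
Ppara: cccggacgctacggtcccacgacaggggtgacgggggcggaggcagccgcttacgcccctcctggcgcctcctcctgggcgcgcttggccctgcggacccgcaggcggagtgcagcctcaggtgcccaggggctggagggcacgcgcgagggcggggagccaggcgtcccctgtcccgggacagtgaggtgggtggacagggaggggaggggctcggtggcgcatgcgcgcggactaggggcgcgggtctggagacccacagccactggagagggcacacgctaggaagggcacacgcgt
Rxrg: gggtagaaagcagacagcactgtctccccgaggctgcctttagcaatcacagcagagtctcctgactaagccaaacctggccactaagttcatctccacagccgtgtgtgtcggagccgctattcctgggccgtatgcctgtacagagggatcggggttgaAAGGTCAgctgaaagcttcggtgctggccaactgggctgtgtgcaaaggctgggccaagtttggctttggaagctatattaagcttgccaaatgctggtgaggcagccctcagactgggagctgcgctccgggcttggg
Perm1: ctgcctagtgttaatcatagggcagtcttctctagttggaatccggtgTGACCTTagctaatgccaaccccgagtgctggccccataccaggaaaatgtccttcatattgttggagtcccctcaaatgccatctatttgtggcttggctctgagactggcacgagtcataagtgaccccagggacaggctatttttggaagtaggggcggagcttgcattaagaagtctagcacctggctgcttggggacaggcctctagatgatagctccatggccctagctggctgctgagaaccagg
A match describes the letters in this window and says nothing of binding, which was not measured here.

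Markers of other cells and fibre types moved with some of these values. For adipocytes, where *Pparg* is a defining receptor, the summed level of 10 markers was 3282, 4395 and 2896 CPM in WT mice 583, 584 and 595 and 3394, 7446 and 3808 CPM in KO mice 588, 589 and 591. The 2 mice with the most adipocyte RNA, WT mouse 584 and KO mouse 589, were the 2 with the most *Pparg*. *Ppara* and *Ppargc1b* were also highest in KO mouse 589, at 4.05 and 6.86 CPM. In WT mouse 584 *Ppara* was at 1.22 CPM, just above WT mouse 595 (1.21) and above WT mouse 583 (0.76). *Ppargc1b* was at 2.66 CPM in WT mouse 584, between WT mice 595 (2.21) and 583 (2.81). *Ppargc1a* was highest of its genotype in WT mouse 584 (8.24 CPM) and KO mouse 589 (11.2 CPM). None of the 10 adipocyte markers passed the threshold by edgeR, while 4 had an unadjusted p under 0.05 by that test, DESeq2 called 1, and 9 had a log2 fold change above 0 (median 0.43). Of the 4, *Plin4*, *Retn* and *Fabp4* were higher in KO muscle and *Lep* was lower (log2 fold change -1.01). *Lep* was past the threshold, as lower, in the edgeR fit without WT mouse 583. Without KO mouse 589, 4 of the 10 were above 0 and the median was -0.11. The brown fat marker *Ucp1* had 1062, 1093 and 74 counts in the WT and 278, 914 and 751 counts in the KO mice, so that its level did not separate the genotypes. *Cidea*, another brown fat marker, was at 38.8, 56.8 and 12.1 CPM in the WT and 33.8, 111.6 and 51.6 CPM in the KO mice, which overlapped and were highest in WT mouse 584 and KO mouse 589. Of the 8 brown fat markers 1 rose, *Ppara* itself, and the sum of the 8, which is mostly *Cox7a1* and *Cox8b*, genes that muscle also expresses, was 2825 to 3385 CPM in WT and 3047 to 3324 CPM in KO mice. Of liver, where *Ppara* is abundant, 6 markers summed to 2.50 to 15.7 CPM over the 6 mice, and *Cyp7a1* had no counts. The 11 slow fibre markers summed to 1079, 1177 and 1862 CPM in the WT and 1531, 2281 and 1634 CPM in the KO mice. All 11 had a log2 fold change above 0 (median 0.50), and none passed the threshold by edgeR or DESeq2, while 5 had an unadjusted p under 0.05 by edgeR's test. Without KO mouse 589, 9 were above 0 and the median was 0.15. It was 0.33 without WT mouse 584 and 0.76 without WT mouse 595. WT mouse 595 had the highest slow fibre sum among the WT mice and the lowest *Ppargc1a* and *Ppargc1b* of all 6. Its *Esrrg* level (6.25 CPM) was the highest among the WT mice. KO mouse 589, with the highest slow fibre sum of all 6, had the highest *Esrrg* (7.67 CPM), *Ppargc1a* and *Ppargc1b* of all 6. The 8 macrophage and leukocyte markers summed to 1003 to 1170 CPM in WT and 554.6 to 710.3 CPM in KO mice. Of these, 4 fell, all 8 had an unadjusted p under 0.05 by edgeR's test, and DESeq2 called 7. The count of 4 was 1 without WT mouse 583 and 2 without WT mouse 595, KO mouse 588 or KO mouse 589. Among the 9 tested fast fibre markers 2 rose, *Actn3* and *Myh1*, with a list median of 0.19, but none did without WT mouse 583 and 1 without KO mouse 589. The 7 erythrocyte markers summed to 4749 to 10390 CPM in WT and 4167 to 4537 CPM in KO mice, with none past the threshold by edgeR, 6 at an unadjusted p under 0.05 by its test, 1 called by DESeq2 and 5 called by edgeR without WT mouse 584. Whether any of these had a part in the differences of the regulators was not tested.

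**Figure D5:**
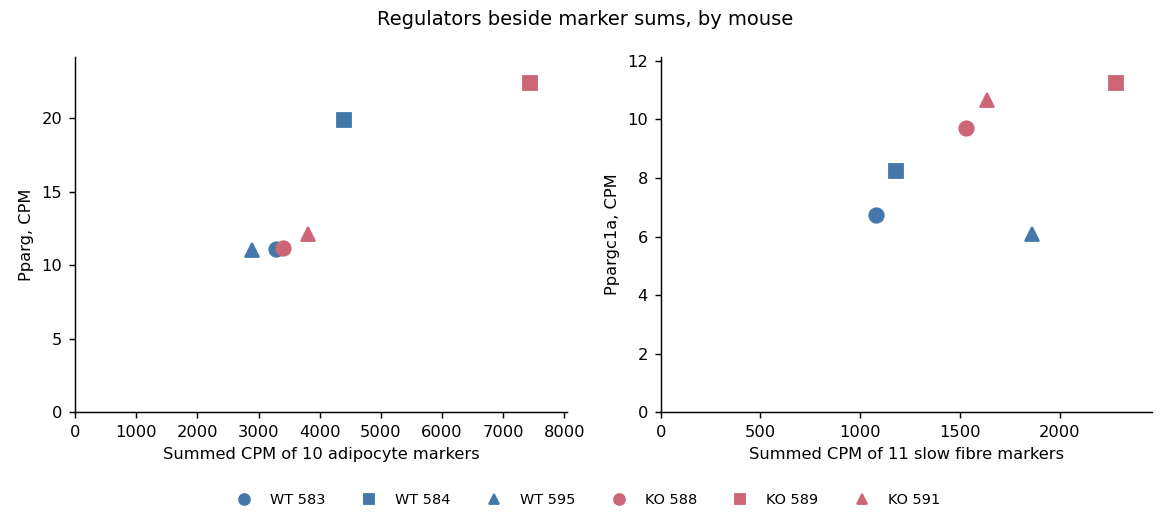
Left, *Pparg* (CPM, vertical axis) against the summed CPM of 10 adipocyte markers in each mouse; right, *Ppargc1a* (CPM) against the summed CPM of 11 slow fibre markers. WT mouse 584 and KO mouse 589 are highest in both values on the left, and on the right WT mouse 595 has a slow fibre sum of 1862 CPM with a *Ppargc1a* level of 6.09 CPM.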

How the data were processed

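RNA-seq libraries from the muscle of 3 WT and 3 KO mice were analysed. The title of KO mouse 589 begins with KOT1 and those of the other KO mice with KO1, and it was used as KO. The values the authors deposited are raw read counts for each gene, whole numbers with no normalization. The study's methods name HISAT2 and mm10, whereas the submitters' processing notes name Bowtie 0.12.2 and mm8. GENCODE vM21 (GRCm38) holds 52489 of the table's Ensembl identifiers, 95.2% of them at identical coordinates. The counting tool, its use of strand, and the feeding state and dissection of the mice are not given in the sources used here. Unnamed regions (448 rows, 0.114% to 0.128% of counts) were kept in the table. Some passed the filter and count among the 15075 tested genes. In KO mouse 588, for example, all untested rows held 0.104% of counts and the unnamed regions 0.115%.

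Genes were kept by filterByExpr (minimum count 10, minimum total 15), TMM-scaled and compared by the quasi-likelihood test of edgeR 4.0.16 (R 4.3.3), with Benjamini-Hochberg adjustment over all tested genes and a threshold of 0.05. The common biological coefficient of variation was 12.1%. Alternatives were DESeq2 1.42.0, limma-voom (limma 3.58.1), RLE and upper quartile scaling, no filter on low counts, at least 10 counts in every library, and each library left out in turn. Log2 ratios of paralogs used a prior count of 2. Levels per kb used the table's length column, which equalled the merged exon length in vM21 for 94.3% of genes but not for *Ppard*, *Esrra*, *Pprc1* and *Rxrb*. Single values were compared by exact two-sided permutation of the mice, and paralogs by exact sign-flip over the 6 libraries. The fit was tested on simulated data. The regulators, gene lists and marker lists were chosen with earlier results of these data known. Named were all regulators, *Rxra*, *Rxrb*, up to 6 genes past the threshold in each list (the 2 with the smallest p where fewer than 2 passed), and for 6 regulators the 3 genes with the most similar profile. *Acadm* and the single markers are named outside this rule, with their values already seen. Some results for single genes are left out of this text.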

Additional observations from a re-analysis of the deposited data

How the results depend on the processing

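No paired analysis was possible because the genotypes share no mouse number. Over 240 values recomputed under an alternative, 192 stayed the same. For a fold change this meant the same direction and side of the threshold. For a share or log2 ratio it meant a move smaller than the spread between mice. For a count of genes it meant staying within a fixed fold range of the main count. The number of genes past the threshold, 342, was 719 with DESeq2 and 1437 without a filter on low counts, a fit with infinite prior degrees of freedom (a median of 7.23 with the filter), which takes the spread of every gene from a trend along expression, and ranged from 81 to 625 when a library was left out. The number of regulators past the threshold, 2, was 4 with DESeq2 and without the filter and 1 with limma-voom, and ranged from 0 to 2 with a library left out. The number of genes of the 4 target and partner lists, 11, was 24 with DESeq2, 37 without the filter, and 6 to 19 with a library left out. Leaving out a library turned the direction of 4 genes near 0: *Pparg* ranged from -0.26 to 0.45, *Esrrb* from -0.19 to 0.091, *Rxra* from -0.082 to 0.035 and *Rxrg* from -0.080 to 0.17 on the log2 scale. The other 8 of the 12 genes of these families, and the shares and log2 ratios of paralogs, kept their direction or moved by less than the spread between mice. The cause of these differences was not tested. Depth limits *Ppara*, *Esrrb* and *Ppargc1b*, which had the fewest counts, and 3 mice against 3 allow no permutation p below 0.1.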

Other observations

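The profile of each of 6 regulators over the 6 libraries was compared with that of 13901 genes, by the root mean square difference of log2 CPM after centring each gene on its mean. Smaller values mean more similar profiles, and the libraries share depth and genotype, so these are descriptions with no test. Closest to *Ppara*, whose own spread was 0.81, were *Slc25a34* (0.26), a mitochondrial carrier gene, *Ucp3* (0.267) and *Agbl1* (0.286). Closest to *Ppargc1a*, with a spread of 0.325, were *Pdha1* (0.0481), a subunit of pyruvate dehydrogenase, *Fbp2* (0.0503), the muscle fructose bisphosphatase, and *Tmtc1* (0.0522). For *Ppargc1b* (spread 0.583) they were *Fer1l6* (0.163), *Gabrr2* (0.172) and *Prlr* (0.176). For *Pparg* (spread 0.424) they were *Slc25a35* (0.0821), *Sort1* (0.0887), a sorting receptor, and *Acsf2* (0.1), an acyl-CoA synthetase. *Esrrg* (spread 0.242) was closest to *St3gal5* (0.0441), *Pla2g12a* (0.0504) and *Gm14719* (0.0531), and *Rxrg* (spread 0.174) to *Neto2* (0.0443), *Gm6311* (0.0511) and *Zdhhc18* (0.055). Profiles of weakly counted genes carry more counting error, and the nearest genes to *Ppara* and *Ppargc1b* differed from them by more than those of the other 4 regulators did.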
